A study of Mus musculus with 46 samples.

Results

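Single regulatory fragments of the Klf2 locus were measured here on their own, that is, without a second fragment in the reporter plasmid. A member is every fragment that the authors' table lists under the Klf2 locus, taken once for each strand with the activity given for that fragment alone. The Klf2 library held 109 of the 490 fragments of the series, of which 86 were candidate cis-regulatory elements (cCREs, named E) and 23 were promoters (named P). Each fragment's listed start and end lie 450 bp apart. Of the 218 possible combinations of a fragment and a strand, 211 had a value, 165 of cCREs and 46 of promoters. Activity is the ratio of barcodes in reporter RNA (cDNA) to barcodes in the plasmid input (pDNA), on a linear scale.

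The cells were E14TG2a, a line of mouse embryonic stem cells cultured in 2i+LIF, a medium that combines inhibitors of MEK and GSK3 with a cytokine that holds the cells in naive pluripotency. They were nucleofected with the reporter plasmids and harvested for RNA 24 h later. The Klf2, Nanog and negative control libraries of the Upstream assay were transfected as 1 mix in 3 biological replicates, and the Tfcp2l1 libraries of the same assay were transfected apart from them. All groups share the cell line and the medium, and no group carries a genetic change or a drug treatment. The plasmids are transient, so the fragments were read outside their chromosomal context, and the replicates share 1 plasmid pool.

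Promoters hold the start of transcription of a gene and bind the general transcription machinery, and many promoters of broadly expressed genes in mammals lie in CpG islands. Enhancers are regulatory elements that raise transcription from promoters, often at a distance and in either orientation, and some of them start transcription themselves. A reporter plasmid with a single fragment and no other promoter therefore reads the ability of that fragment to start transcription of the reporter alone. Klf2 encodes a Krüppel-like transcription factor that takes part in the network of naive pluripotency in mouse embryonic stem cells.

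The sequences just before the gene starts show the kind of DNA these measurements concern. The set below holds the fragment with the highest activity (P022), the zinc finger gene starts in a promoter fragment (P003) and in a cCRE (E007), the start with the widest gap between strands (P013), the Klf2 start (P016), and an olfactory receptor start without any of the motifs searched (P007). Sequences are from RefSeq, build GRCm38.p6, written 5′ to 3′ on the gene's strand, and capitals mark motif matches on either strand. Each holds at most 250 bases before the start, all inside the fragment. Those of P022 and P003 are shorter, at 140 and 232 bases, although more bases before the start lie in these fragments.
P022, before Smim7, minus strand, chr8:72571049-72571188: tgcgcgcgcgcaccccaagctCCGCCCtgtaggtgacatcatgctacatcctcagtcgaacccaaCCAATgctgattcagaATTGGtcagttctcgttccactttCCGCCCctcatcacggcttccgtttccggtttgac
P003, before Zfp961, plus strand, chr8:71950816-71951047: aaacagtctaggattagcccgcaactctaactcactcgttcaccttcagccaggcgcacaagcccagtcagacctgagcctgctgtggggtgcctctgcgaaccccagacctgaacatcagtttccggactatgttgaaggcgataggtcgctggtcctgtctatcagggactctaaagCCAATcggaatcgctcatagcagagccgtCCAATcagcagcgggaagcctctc
E007, before Zfp617, plus strand, chr8:71922575-71922824: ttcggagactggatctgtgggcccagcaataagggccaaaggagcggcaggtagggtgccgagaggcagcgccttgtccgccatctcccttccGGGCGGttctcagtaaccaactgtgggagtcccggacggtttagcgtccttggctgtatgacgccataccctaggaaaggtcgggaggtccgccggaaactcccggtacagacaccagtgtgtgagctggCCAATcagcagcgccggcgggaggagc
P013, before Fam32a, plus strand, chr8:72219495-72219744: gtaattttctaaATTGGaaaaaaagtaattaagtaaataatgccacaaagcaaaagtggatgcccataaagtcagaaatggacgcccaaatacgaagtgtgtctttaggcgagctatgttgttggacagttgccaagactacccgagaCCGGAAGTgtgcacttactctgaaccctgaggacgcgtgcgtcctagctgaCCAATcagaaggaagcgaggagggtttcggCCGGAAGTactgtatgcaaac
P016, before Klf2, plus strand, chr8:72318812-72319061: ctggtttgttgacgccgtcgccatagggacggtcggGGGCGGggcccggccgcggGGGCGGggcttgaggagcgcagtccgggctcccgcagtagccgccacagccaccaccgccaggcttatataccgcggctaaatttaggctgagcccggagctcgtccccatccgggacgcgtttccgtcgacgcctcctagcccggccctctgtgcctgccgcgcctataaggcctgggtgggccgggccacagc
P007, before Olfr374, plus strand, chr8:72106790-72107039: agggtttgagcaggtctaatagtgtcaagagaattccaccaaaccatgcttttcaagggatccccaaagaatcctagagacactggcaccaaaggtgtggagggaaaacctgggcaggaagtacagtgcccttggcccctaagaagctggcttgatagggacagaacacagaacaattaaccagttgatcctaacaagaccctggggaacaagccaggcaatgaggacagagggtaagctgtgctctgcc

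The stretch before Smim7 also lies before Tmem38a, which is transcribed the other way, and holds 11 CpG dinucleotides in 140 bases. The stretch before Klf2 holds 29 CpG in 250 bases and that before Olfr374 holds 0 in 250. The motifs searched on both strands were the TATA box (TATAAA), the CCAAT box (CCAAT), the GC box (GGGCGG), the CACCC box of Krüppel-like factors (CCACACCC), the octamer (ATTTGCAT), a site of oestrogen-related receptors (TCAAGGTCA), an ETS site (CCGGAAGT), an NRF1 site (CGCATGCG), an AP-1 site (TGACTCA) and an E-box (CACGTG), none of which contains another. They were looked for in the 300 bases around a start, 250 before it and 50 after its first base, in the 23 RefSeq windows whose start lies in a fragment. CCAAT was in 13 of the 23 windows and in 37.4% of the 32851 promoter windows of the reference table. GGGCGG was in 10 of the 23 and in 35.7% of all windows, and CCGGAAGT in 2 of the 23 and in 3.89% of all. TATAAA was in 1 of the 23 and in 13.6% of all windows, and TGACTCA in 0 of the 23 and in 5.20% of all. A match is a description of the letters and not evidence of a bound factor.

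Most fragments read alone within 2-fold of the plasmid without any fragment. The empty vector, listed with the Nanog constructs of the same mix, read 0.118, 0.0675 and 0.238 in replicates 1, 2 and 3. The median Klf2 fragment read 0.129, 0.0683 and 0.255 in the same replicates. The low end of the scale thus differed between replicates and moved with the empty vector, so that log values of weak fragments carry that difference. For the 25 strand values with a geometric mean of at least 1, the median SD between replicates was 0.12 on the log2 scale, against 0.97 for those under 1. Across the 207 strand values above 0 in all replicates, log2 activities correlated between pairs of replicates with r from 0.95 to 0.96. Spearman's rho, which rests on ranks, was lower, from 0.79 to 0.86. These points share 1 plasmid pool. The values at 0 were all in replicate 2 and belonged to E069 plus, E084 minus, E101 minus and E103 plus, and E022 minus, E052 plus and E067 minus had no value alone.

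Promoters were more active than cCREs as a class, and both classes spread widely. The 46 promoter values ran from 0.0742 to 18.6 with a median of 0.284, and the 161 cCRE values above 0 in all replicates from 0.0424 to 8.61 with a median of 0.121 (geometric means of 3 replicates). With strands averaged per fragment on the log2 scale, the 23 promoters exceeded the 85 cCREs by 2.08, 2.26 and 1.47 in replicates 1, 2 and 3, a mean of 1.94 ± 0.41 (SD, n = 3), or 3.83-fold. All 3 promoter means lay above all 3 cCRE means, and the exact permutation test gave p = 0.1, two-sided, which is the smallest p that 3 values against 3 allow. Both classes come from the same transfections, and paired by replicate the exact sign-flip test gave p = 0.25, the smallest it allows. The SD over fragments was 2.40 among promoters and 1.03 among cCREs, so the classes overlap fragment by fragment. The size of the gap rested on the strong promoters: medians over fragments in place of means gave a log2 gap of 1.01, and arithmetic means of linear activity gave 3.05. Replicate 3, which had the highest empty vector value, had the smallest gap.

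Against the empty vector, 21 of 46 promoter values (45.7%) and 18 of 165 cCRE values (10.9%) were over 2-fold higher in all 3 replicates. Over the 447 values of the Klf2 and Nanog libraries together, 16.1% met this limit. The promoter values belonged to 12 fragments, 9 of them with both strands over the limit, and the cCRE values to 13 fragments, 5 of them with both. Within 2-fold of the empty vector in either direction, by geometric mean, lay 23 of the 46 promoter values and 132 of the 161 cCRE values.

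Log2 activity was centred on the median fragment of the same library in each replicate. A limma test on these values, with Benjamini-Hochberg adjustment over both libraries of the mix at 0.05, called 47 of the 207 Klf2 values higher than the median. Over the mix it called 20.3% of 443 values higher. The 47 values were 23 of 46 promoter values and 24 of 161 cCRE values. One value, the minus strand of cCRE E048, was called lower, and 0.903% of the mix was. With replicates treated as unpaired rather than centred, 28 Klf2 values were called, all higher. With replicates scaled to the same spread, 109 were called, 72 of them higher.

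**Figure D1:**
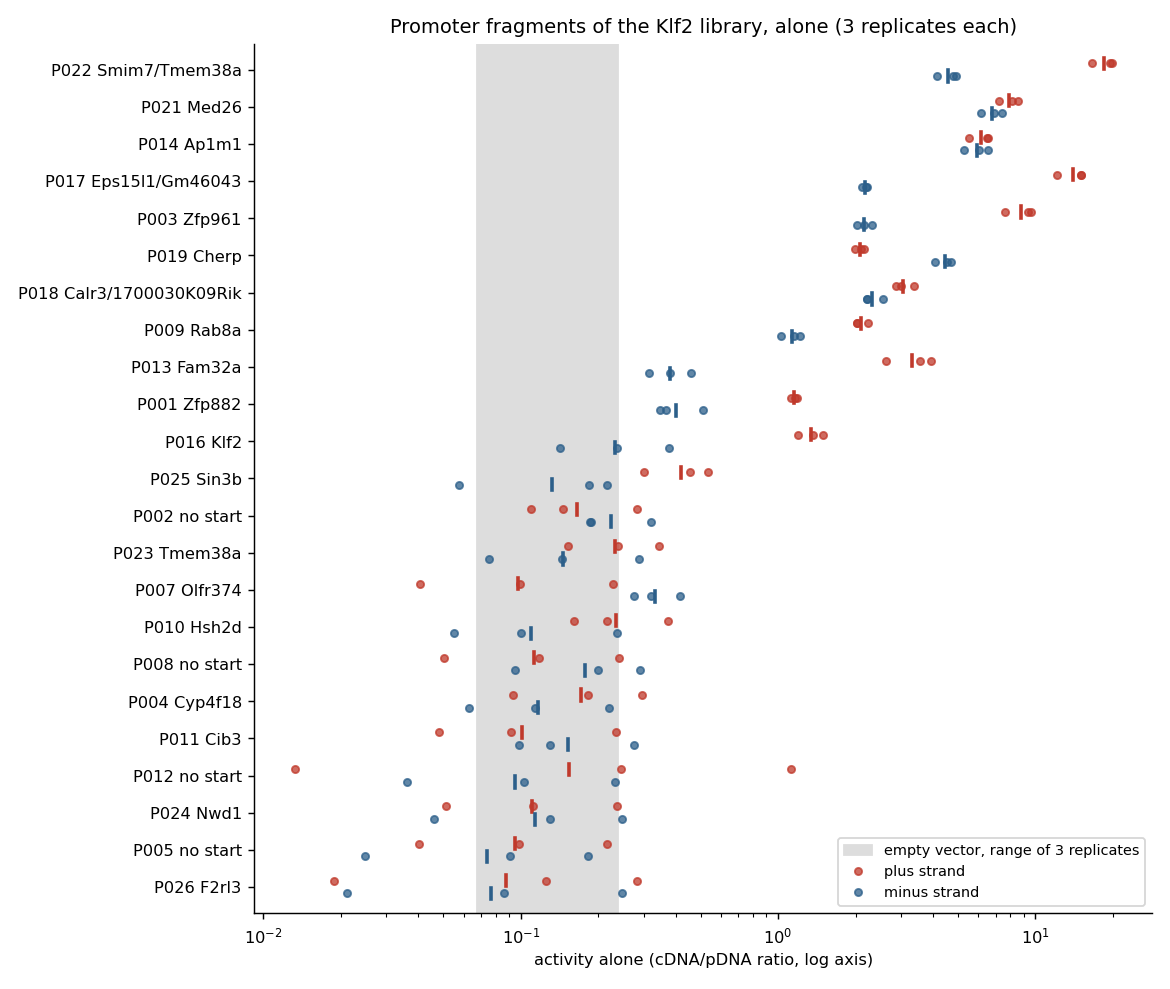
Activity alone of the 23 promoter fragments (log axis, cDNA/pDNA ratio), 3 replicates per strand as points and their geometric mean as a bar, ordered by mean over strands. Plus strand red, minus strand blue, and grey the range of the empty vector, 0.0675 to 0.238. The upper 11 fragments have at least 1 strand with a mean above 1 and the other 12 have means of at most 0.418.

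Of the promoter fragments, 11 were called higher on both strands and a further one, P025 at Sin3b, a corepressor scaffold, on the plus strand. The most active was P022, which holds the divergent starts of Smim7, a small membrane protein, and Tmem38a, a cation channel of the sarcoplasmic reticulum. On the plus strand, the direction of Tmem38a, it read 19.8, 19.4 and 16.6 in the 3 replicates, and on the minus strand, that of Smim7, 4.77, 4.90 and 4.15. All 6 values lie far above the empty vector, with a geometric mean on the plus strand 150-fold over it. The log2 excess over the median fragment was 7.14 with a standard error (SE) of 0.46 on the plus strand (limma adjusted p = 0.0128). Many strong fragments share this adjusted p, so it gives them no order.

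Next came P017, which holds the starts of Eps15l1, an endocytic adaptor, on the minus strand and of the RNA gene model Gm46043 on the plus strand. It read 15.0, 15.0 and 12.2 in the direction of Gm46043 and 2.20, 2.21 and 2.13 in that of Eps15l1. The higher strand of this fragment is thus the one that faces away from the protein-coding gene.

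Promoter lists were fixed by gene name as broadly expressed, tissue-restricted or zinc finger genes, with earlier results of these data known. No expression data were used for them. P018 at Calr3, P025 at Sin3b and P026 at F2rl3 were in none of these lists. Of their 6 strand values 3 were called higher, both of P018 and the plus strand of P025. Of the genes listed as broadly expressed, 8 fragments were measured, and 14 of their 16 strand values were called higher. Over all promoter fragments 23 of 46 were. Their activities ran from 0.146 to 18.6 with a median of 3.88. P021 at Med26, a Mediator subunit, read 8.09, 8.53 and 7.20 on the plus strand and 6.88, 7.42 and 6.14 on the minus strand. P014, in which the gene model of Ap1m1, a clathrin adaptor subunit, begins, read 6.53, 6.51 and 5.51 on the plus and 6.03, 6.53 and 5.30 on the minus strand. Both were nearly even between strands. P019 at Cherp, an endoplasmic reticulum protein, had geometric means of 4.44 in the gene's direction and 2.08 against it, and P009 at Rab8a, a small GTPase of vesicle transport, 2.10 and 1.13. P013 at Fam32a is described with the strands below. The exception was P023, a second start of Tmem38a close to P022, at 0.233 on the plus and 0.146 on the minus strand, neither of which was called (limma adjusted p = 0.059 and 0.36).

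None of the 10 strand values of the 5 tissue-restricted promoters was called higher in the limma test. These were P004 at Cyp4f18, a cytochrome P450, P007 at the olfactory receptor gene Olfr374, P010 at Hsh2d, an adaptor of blood cells, P011 at Cib3, a calcium-binding protein, and P024 at Nwd1. Their activities ran from 0.0973 to 0.333 with a median of 0.115, which is close to the empty vector's geometric mean of 0.124. The highest, Olfr374 against the gene's direction, read 0.320, 0.276 and 0.416 and missed the threshold (limma adjusted p = 0.051), and the sense strand of Hsh2d did so at 0.054. Without a test of the lists against each other, the counts are a description of these fragments and depend on which genes each list holds.

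Both zinc finger promoters were called on both strands. P003 at Zfp961 read 9.63, 9.38 and 7.63 in the gene's direction and 2.15, 2.33 and 2.03 against it, and P001 at Zfp882 had geometric means of 1.16 and 0.403. P002, which begins 8 bases beyond P001 and holds no annotated start, read 0.165 on the plus and 0.223 on the minus strand and was not called. The other fragments named as promoters without an annotated start, P005, P008 and P012, were not called either, and the 8 strand values of the 4 ran from 0.0742 to 0.223. Among them the plus strand of P012 was discordant, at 1.12, 0.0133 and 0.244 in replicates 1, 2 and 3. P018, between Calr3, a testis chaperone of the calreticulin family, and 1700030K09Rik, read 3.07 on the plus and 2.32 on the minus strand. P026 at F2rl3, a thrombin receptor, stayed at 0.0875 and 0.0766.

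The Klf2 promoter was of middling strength. P016 read 1.37, 1.20 and 1.49 in the direction of the gene and 0.236, 0.142 and 0.375 against it. The sense values of all replicates lie above all antisense values. On the sense strand it ranked 22 of the 207 values and 17 of the 46 promoter values, 10.9-fold over the empty vector. Its log2 excess over the median was 3.36 (SE 0.35, limma adjusted p = 0.0128) on the sense and 0.83 (SE 0.16, adjusted p = 0.041) on the antisense strand. The second of these calls was lost when replicate 1 or replicate 2 was left out (adjusted p = 0.27 and 0.080) and with replicates unpaired (0.99).

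**Figure D2:**
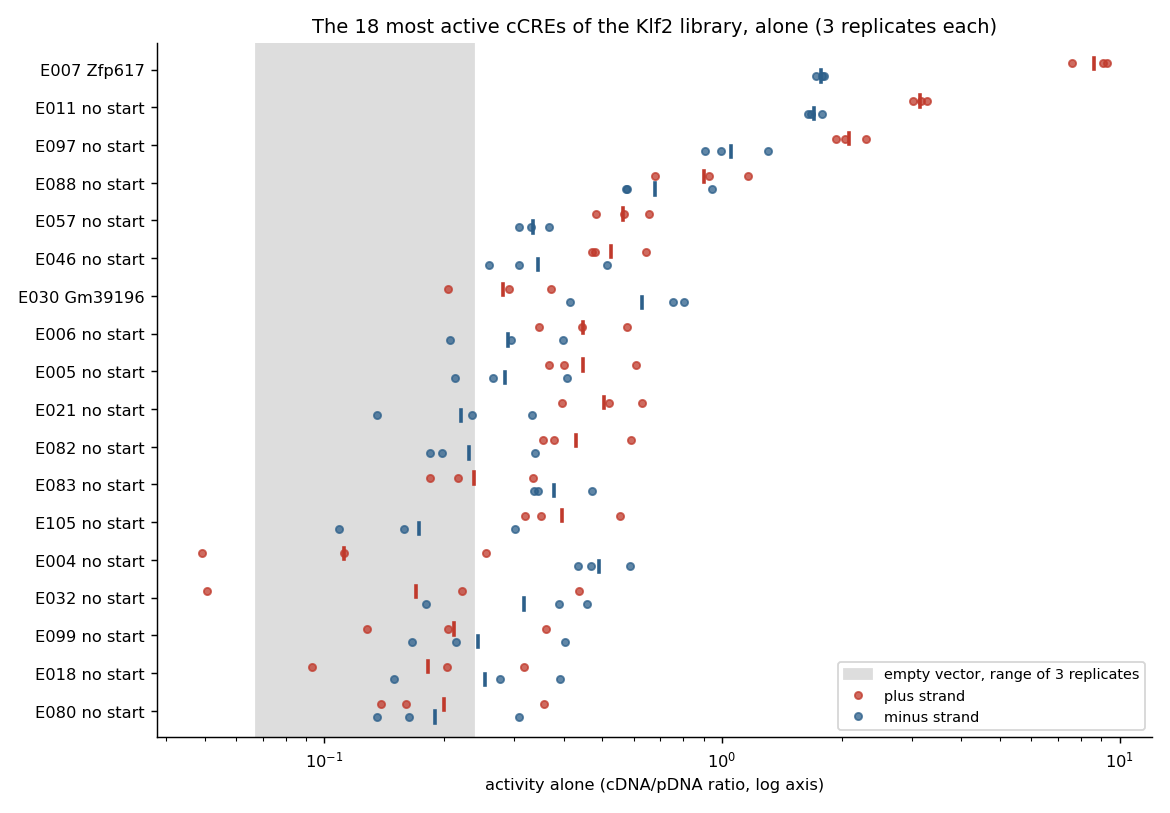
Activity alone of the 18 most active cCREs by mean over strands (log axis, cDNA/pDNA ratio), drawn as for the promoters, with any gene start in the fragment named. E007, E011 and E097 have a strand above 1, and most of the others lie between the empty vector and 1.

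Among cCREs, 3 fragments had a strand with an activity of at least 1, against 11 of the 23 promoters. E007 was the highest, at 9.07, 9.31 and 7.57 on the plus strand and 1.79, 1.81 and 1.72 on the minus strand. This fragment, chr8:71922525-71922975 as listed (mm10), holds the annotated start of Zfp617, a zinc finger gene on the plus strand, at 71922825. It thus contains a gene start although the library names it a cCRE, and its plus strand ranked 4 of the 207 values, just under that of P003 at 8.83. E008, which overlaps it by 69 bases, read 0.203 on the plus and 0.174 on the minus strand.

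E011 lies within the Zfp961 gene, with its middle 2.10 kb from the nearest annotated start, and read 3.27, 3.02 and 3.17 on the plus strand and 1.67, 1.65 and 1.79 on the minus strand. E097, within the Nwd1 gene and 30.4 kb from the nearest start, read 2.31, 1.93 and 2.04 on the plus and 1.31, 0.906 and 0.993 on the minus strand. The Nwd1 promoter fragment itself read 0.111 and 0.114, near the empty vector. E098, which begins 11 bases beyond E097, read 0.113 and 0.0840.

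Below an activity of 1 followed E088, 3.11 kb from the Nwd1 start, at 0.902 on the plus and 0.678 on the minus strand. E057, E046, E030 and E006 completed the upper 8. E030 holds the start of the gene model Gm39196 on the minus strand and was higher on that strand, at 0.631 against 0.281. E005 and E006, which share 96 bases, both read 0.447 on the plus strand and 0.285 and 0.290 on the minus strand. In contrast, E021 read 0.506 on the plus strand while E020, which shares 274 of its bases, read 0.101, and E091 and E092, which share 79, all lay between 0.102 and 0.132. Overlap thus went with like values in E005 and E006 and in E091 and E092, the latter near the empty vector. It did not in E020 and E021 or in E007 and E008, at 8.61 and 0.203 on the plus strand.

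The lowest cCREs by mean over strands were E022, E065, E016, E102 and E052. The lowest single value was E065 on the plus strand, at 0.0245, 0.0182 and 0.171 in the 3 replicates, below the empty vector in each. The single lower call, E048 minus, had values of 0.0772, 0.0391 and 0.171 and was lost when any 1 replicate was left out. The number of lower calls was 0 without replicate 1 or replicate 2 and 13 without replicate 3. Such low values are within the range where replicates differ most, and no order is read from them.

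Fragments were next compared between their strands, which asks whether transcription from a fragment depends on its orientation. The 99 fragments with values above 0 on both strands had a median fold between strands of 1.62 among 23 promoters and 1.28 among 76 cCREs. More than 2-fold apart were 10 of the promoters and 9 of the cCREs. Log2 activities of the strands correlated with r of 0.89 over the 99 fragments, 0.89 among promoters and 0.83 among cCREs (Spearman's rho 0.68, 0.82 and 0.61). Strands of 1 fragment share the same bases and the same transfections.

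The limma test of the strand difference called none of the 99 Klf2 fragments when replicates were treated as unpaired (26 had an unadjusted p under 0.05). Over both libraries of the mix, 0% of 213 fragments were called. Both strands were measured in the same transfections, and with the replicate as a block 24 Klf2 fragments were called, 20 higher on the plus and 4 higher on the minus strand, against 17.4% of 213 in the mix. The 24 comprised 11 promoters and 13 cCREs. In 19 of the 23 promoters and 47 of the 76 cCREs, 1 strand was higher in all 3 replicates, against 65.3% of 216 fragments in the mix, zeros included. The number of strand calls thus depended on the block, and it differed between the other settings as well. An alternative added after the data were seen, without centring and without a block, called 6 of the 99 (4.23% of 213 in the mix), all higher on the plus strand.

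The widest gap was at Fam32a, a nuclear protein linked to splicing. P013 read 3.56, 3.92 and 2.63 in the gene's direction and 0.380, 0.314 and 0.460 against it, an 8.74-fold difference (log2 difference 3.13, SE 0.67 and adjusted p = 0.068 without the block, SE 0.26 and adjusted p = 0.0085 with it, limma). P017 followed at 6.42-fold, the Klf2 promoter at 5.79-fold and E007 at 4.86-fold, with limma adjusted p = 0.0027, 0.013 and 0.0027 with the block. E004, 11.5 kb from the nearest start, was the widest with the minus strand higher, at 0.469, 0.434 and 0.586 against 0.112, 0.0494 and 0.255 on the plus strand, 4.38-fold (adjusted p = 0.044 with the block). In each of these 5 fragments the values of the higher strand exceeded those of the other strand in every replicate.

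**Figure D3:**
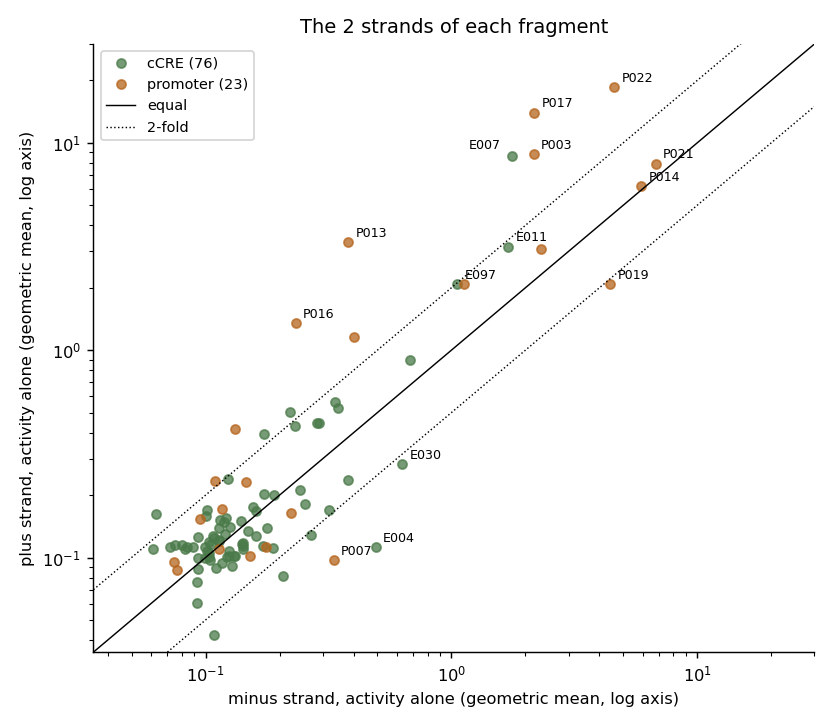
Geometric mean activity alone on the plus strand against the minus strand for 99 fragments, 76 cCREs (green) and 23 promoters (brown), on log axes, with lines at equality and at 2-fold. P013, P016 and P017 lie farthest above the line, and E004 and P007 farthest below it.

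Set against the direction of the gene, promoters were higher in the sense orientation on average. Over the 15 promoter fragments whose annotated starts point one way, sense exceeded antisense by 0.84, 1.00 and 0.72 in the 3 replicates, a mean log2 difference of 0.85 ± 0.14 (SD, n = 3), or 1.81-fold. The exact sign-flip test over replicates gave p = 0.25, two-sided, the smallest p that 3 replicates allow. The SD over fragments was 1.25. In 10 of the 15 the sense strand was higher in all 3 replicates, and in 7 the mean was over 2-fold higher. Most of these genes lie on the plus strand, so sense and plus strand largely coincide in this set. For the genes on the minus strand the log2 difference was −0.56 (Cyp4f18), −0.22 (Med26), 0.58 (Cib3) and 1.09 (Cherp). Among cCREs, few of which hold a start, plus was higher in all 3 replicates in 29 and minus in 18. Gene direction was not tested apart from the strand.

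In 3 promoters the antisense strand was higher in all 3 replicates. At Olfr374 it was 0.333 against 0.0973 for the sense strand, which was not called even with the block (adjusted p = 0.063). At Cyp4f18 it was 0.171 against 0.117 (limma adjusted p = 0.044 with the block), with both near the empty vector. At Med26 it was 7.92 against 6.79 (adjusted p = 0.18 with the block), so that a strong promoter showed little dependence on orientation. Of the 9 fragments among the 15 with a mean over 2-fold above the empty vector on a strand, sense was higher in 7, by a mean log2 difference of 1.21 over the 9.

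CpG content around the start went with activity across fragments. In 21 fragments with a RefSeq window, including cCREs E007, E030 and E073, the higher strand's log2 activity correlated with CpG per 100 bases at r of 0.82 and rho of 0.81, and with GC percent at r of 0.59 and rho of 0.55. The 11 fragments with a strand of at least 1 had a median of 7 CpG per 100 bases and a lowest value of 3.33, and the 10 others a median of 1.33 and a highest value of 4.67. The median over all promoter windows of the reference table was 2.33. Klf2, at 10.7 CpG per 100 bases, was among the windows richest in CpG and had an activity of 1.35, while Zfp961, at 7, had 8.83. These windows cover 300 bases and not the whole fragment, P014 had no window, and base composition is shared among CpG, GC and GGGCGG counts.

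Along the chromosome, the correlation of a fragment's log2 activity with that of its neighbour was r of −0.05 over 106 neighbouring pairs, 0.02 over 83 pairs of successive cCREs and 0.39 over 22 pairs of successive promoters. With the distance from the Klf2 start it was −0.01 over 108 fragments, 0.19 over 85 cCREs and −0.27 over 23 promoters, and weak values like these are no finding. With the log10 distance from the nearest annotated start it was −0.54 over 108 fragments, −0.27 over 85 cCREs and −0.36 over 23 promoters. Most promoter fragments hold a start, so class and distance cannot be told apart over the 108. Neighbours share no more than their place, except where they overlap.

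**Figure D4:**
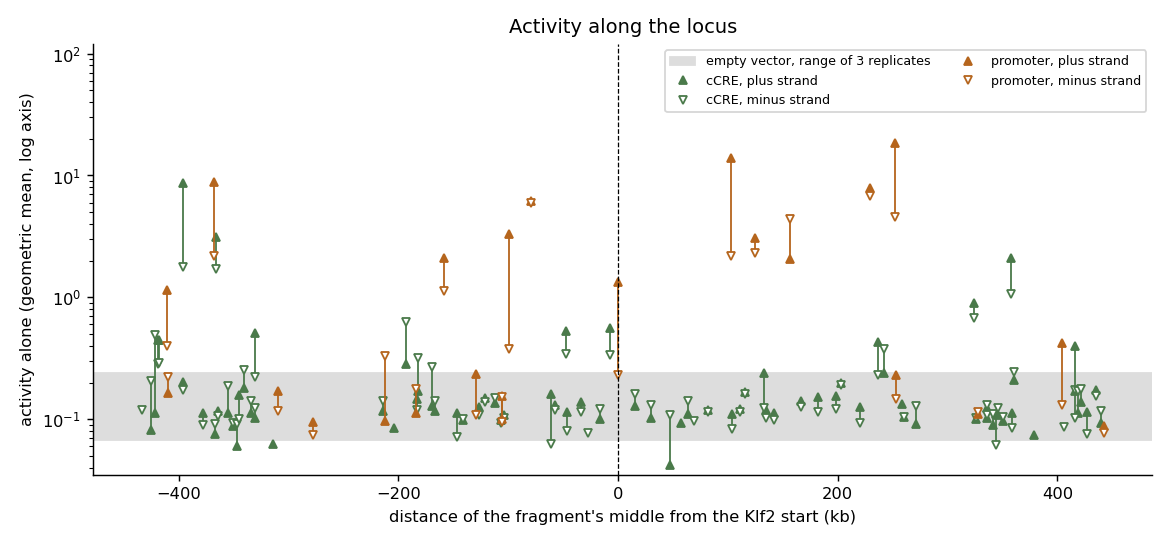
Geometric mean activity alone (log axis) of all fragments by the distance of their middle from the Klf2 start in kb, plus strand as filled and minus strand as open triangles, joined for each fragment, with cCREs in green, promoters in brown and the range of the empty vector in grey. Fragments above 1 lie on both sides of Klf2, among many fragments within the range of the empty vector.

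In the first stretch, from the start of the locus to Cyp4f18, 10 of 33 cCRE values were called higher, from 6 of 17 cCREs, and 4 of 6 promoter values. Between Cyp4f18 and Ap1m1 2 of 32 cCRE values and 4 of 18 promoter values were called, between Ap1m1 and Eps15l1 3 of 27 and 6 of 6, and beyond Eps15l1 9 of 69 and 9 of 16. Over the whole locus 24 of 161 cCRE values (14.9%) and 23 of 46 promoter values were called, with the strands of a fragment counted apart. The stretches were not tested against each other. The median cCRE differed little between these stretches, at 0.130, 0.128, 0.115 and 0.117. The stretches hold different genes, and the first is the one with the zinc finger cluster.

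Around Klf2 itself, within 20 kb of its start, 3 cCREs were measured next to the promoter. E057, 7.77 kb upstream, read 0.567, 0.482 and 0.656 on the plus strand, 4.56-fold over the empty vector (limma log2 excess over the median 2.10, SE 0.33, adjusted p = 0.025, lost with replicates unpaired at adjusted p = 0.081), and 0.335 on the minus strand, which was not called. E055, 16.5 kb upstream, read 0.101 and 0.122, and E061, 15.2 kb downstream, 0.128 and 0.160, all close to the empty vector. The next cCRE upstream among the upper 8, E046 at −47.6 kb, read 0.526 and 0.345 and was called on both strands (the plus strand's call was lost with replicates unpaired, limma adjusted p = 0.11). By distance from an annotated start, 3 of 6 cCRE values were called where the start lay inside the fragment, 4 of 35 where it lay outside but under 5 kb away, and 17 of 120 at 5 kb or more. Over all cCRE values it was 24 of 161 (14.9%).

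The values alone were then set beside other constructs with the same fragments. As the second fragment of a pair, with a cCRE placed before it, fragments kept nearly the order they had alone: log2 values correlated with r of 0.986 over 183 strand values (0.962 over 139 of cCREs and 0.996 over 44 of promoters). As the first fragment, with a cCRE after it, r was 0.91 over 163. Medians were taken over at least 10 partners, and the points share the fragments, the mix and the transfections. The labels name separate Klf2 libraries of single fragments and of pairs within this mix.

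The level differed between the places more than the order did. For promoter values of at least 1 alone, the median ratio of activity in a pair to activity alone was 0.81 as second fragment (19 values) and 0.168 as first fragment (18 values, from 0.0580 to 0.306). For the 4 values of E011 and E097, cCREs without a gene start, the ratio as first fragment ran from 0.612 to 1.05. E007, which holds the Zfp617 start, fell from 8.61 alone to 0.999 as first fragment on the plus strand, a ratio of 0.116, and from 1.77 to 0.884 on the minus strand. E011 plus thus read 3.15 alone and 2.17 as first fragment, and P021 plus 7.92 alone and 0.632. The difference between these sets was not tested, since it rests on 2 cCREs without a start. Partner sets also differed in size, with 25 partners for E011 plus and 150 for P021 plus as first fragment. A difference between the libraries of single fragments and of pairs was not tested either.

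Strand differences were also kept in pairs, more closely as second than as first fragment. Log2 strand differences correlated with those alone at r of 0.92 over 89 fragments as second and 0.64 over 67 as first fragment. Of the 19 fragments over 2-fold apart alone, 18 leaned the same way as second fragment, 11 of them by over 2-fold, and of 13 with values as first fragment 12 did, 6 of them by over 2-fold. P013 differed 8.21-fold between strands as second fragment and P017 6.92-fold. The exception as second fragment, E105, differed 2.29-fold alone and 1.01-fold there. The exception as first fragment, P003, differed 4.08-fold alone and 1.28-fold in the other direction there. The Klf2 promoter differed 4.22-fold between strands as second fragment, and as first fragment read 0.178 on the plus and 0.17 on the minus strand.

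**Figure D5:**
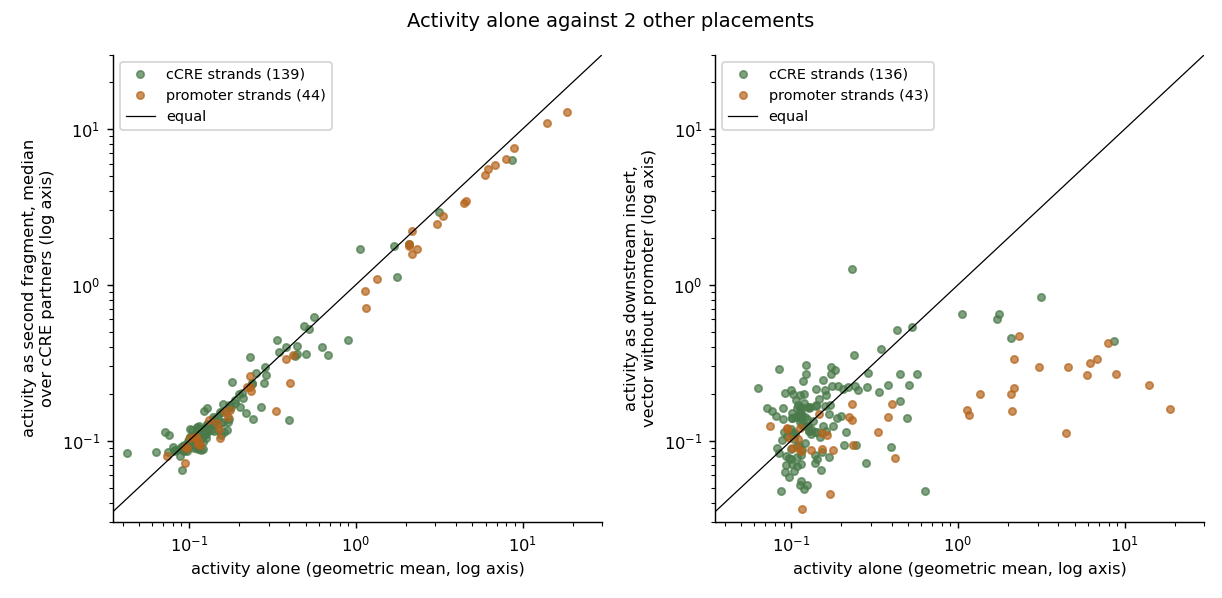
Activity alone (geometric mean, log axis) against the median over cCRE partners as second fragment (left) and the activity as insert downstream of the reporter in a vector without promoter (right), with cCRE strands in green and promoter strands in brown. The left points follow the line of equality, and on the right the promoter values reach 0.469 at most.

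Placed downstream of the reporter in a vector without a promoter, the same fragments kept their order less closely than in pairs. Spearman's rho with activity alone was 0.48 over all strand values and 0.74 over those of promoters. This assay was run on other libraries and transfections, so levels are set side by side only. Its log2 activity correlated with activity alone at r of 0.51 over 179 strand values, 0.57 over 136 of cCREs and 0.75 over 43 of promoters. The 137 cCRE values had a median of 0.142, the 43 promoter values 0.142, and the 39 values of shuffled and random controls 0.0814. P022 plus, the highest alone, read 0.159 there and E011 plus 0.831. E082 minus, singled out after its value was seen, was the highest insert at 1.26 and read 0.231 alone. Of 16 fragments over 2-fold apart between strands alone, 4 leaned the same way downstream, none by over 2-fold, and over 82 fragments the strand differences of both assays correlated at r of −0.31.

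The boost index of cCREs placed before promoters was higher for cCREs that were active alone. The boost index is the log2 activity of a cCRE placed before a promoter relative to the median construct of that promoter, and its mean over at least 3 promoter orientations correlated with the cCRE's log2 activity alone at r of 0.87 and rho of 0.71 over 131 strand values. The mean index was 2.62 for E007 plus, 2.47 for E097 plus, 1.10 for E011 plus and 0.76 for E057 plus. On the minus strands of the same fragments it was 2.04, 1.61, 1.55 and 0.30, so that E011 was higher on the strand weaker alone. These means rest on unlike sets of 8 to 45 promoter orientations. These values come from the same 3 transfections as the values alone. Transcription that the cCRE itself starts also enters the index, so the index does not separate it from an effect on the promoter.

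The gap between promoters and cCREs was compared with the other libraries of the assay. It was 1.94 in the Klf2 library, −0.37 ± 0.16 among 18 promoters and 104 cCREs of the Nanog library, and 0.80 ± 0.09 among 25 promoters and 224 cCREs of the Tfcp2l1 library (log2, SD, n = 3). The Klf2 gap exceeded that of the Nanog library by 2.30 and that of the Tfcp2l1 library by 1.13, with all 3 replicates above all 3 of the other library in both cases and an exact permutation p = 0.1 for each, the smallest that 3 against 3 allow. The Nanog library shares the transfections of the Klf2 library, and paired by replicate the exact sign-flip p was 0.25, again the smallest possible. The Tfcp2l1 values come from another transfection, so library and transfection cannot be told apart there. With medians over fragments these differences were 1.20 and 0.53.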

How the data were processed

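The authors deposited the activity of each construct and of each of its fragments alone as a ratio, reporter RNA barcodes over plasmid barcodes on a linear scale, per the labels and file headers. The submitters' processing notes name Bowtie2 and mm10. Barcode counting, filters and scaling are not given in the sources used here, and the depth behind each value is unknown. The labels list 2 plasmid input (pDNA) samples for the 3 cDNA replicates of the mix. Which input each replicate was divided by is not given, so replicates may share it. Each fragment and strand was taken once, after a check that all its listings agree within a relative tolerance of 1e-06. Of the columns with values per replicate, 12 were not used.

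Log2 activities, without values at 0, were centred on each replicate's median fragment of the same library. The Klf2 and Nanog libraries were then tested together with limma 3.58.1 in R 4.3.3, against 0 or between strands, with Benjamini-Hochberg adjustment at 0.05. The fit was tested on simulated data. Class, orientation and library differences were tested with exact permutation over replicates (scipy 1.17.1). The labels call the replicates independent biological replicates. The strands of a fragment are paired since 1 transfection gives both, and their centred deviations correlated at r of 0.17, 0.64 and 0.72 in replicates 1, 2 and 3, each over 99 fragments.

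Gene starts and windows are from RefSeq (GRCm38.p6). For a gene with a strand in the promoter table, the outer end of its gene model counted as a start too. Named are all promoters, the upper 8 and lower 5 cCREs by mean over strands, the 5 widest strand differences since none passed unblocked, overlapping fragments and those within 20 kb of Klf2. The members, lists and rules were chosen with earlier results of these data known. Alternatives left out each replicate, kept values at 0 with a pseudocount of 0.01, left out activities under 0.1, scaled replicates, and changed baseline, block or average.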

Additional observations from a re-analysis of the deposited data

Results flagged for a closer look

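The gap between promoters and cCREs alone had opposite signs in libraries of 1 mix. In the Klf2 library promoters were higher in all 3 replicates, by 1.94 on the log2 scale, and in the Nanog library cCREs were higher in all 3, with a difference of −0.37. The exact permutation test of the difference between the libraries gave p = 0.1, the smallest possible with 3 replicates in each. Both libraries were measured in the same 3 transfections, and paired by replicate the exact sign-flip test gave p = 0.25, the smallest it allows.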

How the results depend on the processing

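The class gap of 1.94, the sense excess of 0.85 and the library differences of 2.30 and 1.13 kept their sign under every alternative run. Without 1 replicate they ranged from 1.78 to 2.17, 0.78 to 0.92, 2.05 to 2.61 and 1.01 to 1.37. Medians over fragments moved the class gap to 1.01 and the library differences to 1.20 and 0.53, arithmetic means moved the class gap to 3.05, and scaling replicates to the same spread moved the sense excess to 1.01.

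Of 48 calls against the median fragment, leaving out 1 replicate gave 37 to 69, scaling to the same spread 109 (72 higher), no replicate block 28, and a baseline at an activity of 1 195 (19 higher and 176 lower). At that baseline the log2 values of P016 minus, E088 plus, E046 plus, E057 plus and E030 minus were −2.10, −0.15, −0.93, −0.83 and −0.66. An activity of 1 lies above most fragments by construction.

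The 0 strand calls became 0 to 4 without 1 replicate (4 without replicate 3), 14 with scaled replicates, 24 with the replicate block, 21 with a pseudocount of 0.1 and 6 without centring. The last of these and the tests paired by replicate of the class gap and of its difference from the Nanog library were added after the data were seen. The cause was not tested. The uneven level of the empty vector between replicates limits what can be said of weak fragments, and without barcode numbers the depth behind each value stays unknown.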
